A study of Drosophila melanogaster with 7 samples.

Results

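The genes described here are 7 of the 16764 genes counted in each library: *Atpalpha*, *nrv1*, *nrv2*, *nrv3*, *kcc*, *Ncc69* and *ClC-a*. They were chosen by name, for their roles in sodium pumping and chloride transport, and all 7 were found in every library. Their unique molecular identifiers (UMIs, 1 for each captured RNA molecule) were summed per run over the glial types and the neuron types of the fly brain.

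The sodium pump uses ATP to carry sodium out of the cell and potassium into it, and its gradients drive most other ion transport in the brain. It is built of a catalytic alpha subunit, for which *Atpalpha* is the main gene of the fly nervous system, and a beta subunit, encoded by *nrv1*, *nrv2* or *nrv3*, which is needed to bring the pump to the membrane. Cotransporters use these gradients to move chloride: the potassium-chloride cotransporter *kcc* carries chloride out of cells, while *Ncc69*, a sodium-potassium-chloride cotransporter, carries it in. *ClC-a* encodes a chloride channel of the ClC family, which lets chloride cross the membrane passively.

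The study sampled male flies, 4 to 9 days old, of inbred wild-type lines of the *Drosophila* Genetic Reference Panel (DGRP) at different points of the sleep–wake cycle. Each of 7 runs was 1 droplet library of central brains pooled from several lines, dissociated with the transcription inhibitor actinomycin D. By Zeitgeber time (ZT, hours after lights on), run 1 held flies of ZT8 and ZT20, runs 2 and 3 of ZT2 and ZT20, run 4 of ZT2 and ZT14, run 5 of ZT20 alone and runs 6 and 7 of ZT8 alone. Within the runs, flies had slept or been awake spontaneously, had been deprived of sleep by rotation of their tubes, were recovering from deprivation, were yoked controls (run 3) or had slept under gaboxadol, a sleep-inducing drug (runs 6 and 7). Cells were not joined to a line or a condition, so that the run is the replicate throughout, and each run is a pool of animals. The p-values therefore rest on sums from these 7 libraries. In the tests of single cell types each run gave 1 sum per type, and all types shared 1 estimate of the spread. The standard errors and p-values of those tests are thus not the spread of 1 type over the 7 runs.

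After filtering, 139299 cells remained of 164038 barcodes, and 209 clusters were found without use of the 7 genes. The glia comprised 9247 cells in 7 clusters (median 2921 UMIs per cell), named from fixed markers as ensheathing glia-like (EG, 4970 cells), astrocyte-like glia (ALG, 2493 cells) and perineurial glia-like cells (PG, 880 cells). Markers of cortex glia and of subperineurial glia were also searched for, but no cluster received either name. A further 904 glial cells with markers of EG and, mainly through *Obp44a*, of ALG received no subtype name. The neurons comprised 120167 cells in 189 clusters (median 5950 UMIs) of 11 types, among them Kenyon cells (KCs), dopaminergic neurons (DANs), clock neurons, ellipsoid body (EB) ring neurons and anterodorsal projection neurons (adPNs). A further 8550 cells in 10 clusters carried markers of both glia and neurons and were left out of both classes. They came mostly from runs 2, 3 and 4 (3119, 1598 and 3023 cells, against at most 347 in another run), and held 889 ± 324 CPM of *nrv2* and 3647 ± 954 CPM of *nrv3*. Their part in the differences below was not tested. Libraries held between 49949595 and 311443505 UMIs. The barcodes of runs 1, 5, 6 and 7 started at 500 UMIs, whereas those of runs 2, 3 and 4 started at 2658, 2676 and 2914 UMIs, so values are also given for these 4 and 3 runs apart. Pairs of runs shared between 35 and 355 barcode sequences, at most 1.14% of the smaller run. The 8 neuronal markers summed to 11095 ± 373 counts per 1000000 UMIs (CPM, mean ± SD over runs) in neurons and to 2076 ± 1065 CPM in glia, with a range of 994 to 3464 CPM. The 6 glial markers summed to 6523 ± 1621 CPM in glia and 200 ± 127 CPM in neurons, with a range of 89.0 to 411 CPM. No marker of either list was at 0 in either class. In the glia without a subtype, *Obp44a* was at 26658 ± 11600 CPM and *alrm* at 1384 ± 481 CPM, against 4565 and 5913 CPM in ALG. The other ALG markers, *Gat* (CG1732 in the files), *Eaat1*, *wun2* and *e*, had lower means there than in EG.

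By the annotation of the assembly BDGP6.54, all 7 genes are protein-coding loci of the main autosomal arms. *nrv2* (2L:6789770-6798862) and *nrv1* (2L:6778555-6786861) lie next to each other on the minus strand, 2908 bases apart. *nrv3* lies farther along the same arm on the plus strand (2L:21380000-21393319). *Atpalpha* (3R:20948714-20976239, plus strand) and *ClC-a* (3R:11797244-11813207, minus strand) share an arm, while *Ncc69* (3L:12368646-12391444, minus strand) and *kcc* (2R:23907654-23925066, plus strand) stand alone on theirs. *Ncc69* overlaps a non-coding RNA gene on the other strand, and *kcc* an antisense RNA gene. Since the libraries count 3′ ends, a UMI level does not grow with gene length.

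*nrv2*, *Ncc69* and *ClC-a* were higher in glia than in neurons in 7 of 7 runs, while *nrv3*, *kcc* and *nrv1* were lower in 7 of 7 (79.0% of all genes tested had 1 direction in all runs). The catalytic subunit *Atpalpha* was among the abundant RNAs of both classes. Of the 8734 genes tested, 74.9% were called (edgeR quasi-likelihood test with Benjamini–Hochberg adjustment, run as a block), 36.6% higher in glia and 38.3% lower. All 7 members were called, so that the call alone does not set them apart from other genes, and their size and direction are given below. Differences are on the log2 scale as glia minus neurons, with the standard error.

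*Atpalpha* stood at 5054, 4703, 4994, 4460, 4803, 5238 and 5002 CPM in the glia of runs 1 to 7. In neurons it stood at 5329, 5735, 6136, 5576, 5523, 5387 and 5688 CPM, above glia in each run, and the 2 sets of values did not overlap. Its direction depended on the scale. With the trimmed-mean scaling of the test, under which the median of all genes was −0.06, *Atpalpha* was 0.33 ± 0.10 higher in glia (adjusted p = 0.0174). On plain CPM, where the median gene was −0.51, it was −0.20 (exact sign-flip permutation test over 7 runs, adjusted p = 0.0198). Relative to the median gene it was thus on the glial side under both scalings. Within the 3 runs with a high UMI minimum the difference was 0.05 ± 0.11 (adjusted p = 0.719), and within the other 4 it was 0.46 ± 0.07 (adjusted p = 0.000142). Leaving out run 5, 6 or 7 gave adjusted p-values of 0.0502, 0.0518 and 0.0506.

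*nrv2* reached 4372, 4154, 4171 and 4289 CPM in the glia of runs 1, 5, 6 and 7, and 2069, 2250 and 1651 CPM in runs 2, 3 and 4. In neurons it lay between 58.2 and 152 CPM, so that the lowest glial value was more than 10 times the highest neuronal one. The difference was 5.64 ± 0.48 (adjusted p = 1e-05), with 4.31 ± 0.24 within the runs with a high UMI minimum and 6.52 ± 0.10 within the others. *nrv2* UMIs amounted to 49.0 ± 9.5% of the glial marker sum in the pooled glia and to a similar 54.4 ± 13.2% of it in neurons. Single glial types did not have this ratio. It was 82.5 ± 14.2% in EG, 76.6 ± 13.1% in the glia without a subtype, 22.3 ± 2.7% in ALG and 2.42 ± 1.54% in PG. The source of the *nrv2* seen in neurons was not tested.

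*nrv3*, the beta subunit known from neurons, showed the reverse. It lay between 4662 and 6400 CPM (median 5361) in neurons and between 1410 and 4239 CPM (median 2263) in glia, without overlap of the 2 ranges. The difference was −0.70 ± 0.13 (adjusted p = 0.000779). It was −0.49 ± 0.12 within the runs with a high UMI minimum and −0.94 ± 0.10 within the others. *nrv1* was a rare RNA, at 2.21 CPM in glia and 4.59 CPM in neurons. The 187 neurons, of 120167, with at least 5 *nrv1* UMIs held 48.0% of its UMIs in neurons. By clusters the direction was the reverse, with a median of 2.44 CPM over glial clusters and 1.43 CPM over neuron clusters. The difference of *nrv1* between the summed classes, −0.56 ± 0.19 (adjusted p = 0.0245, edgeR), was not stable. The call was lost under 8 of 19 alternatives, among them leaving out run 2 or run 3 (−0.53 in both, adjusted p = 0.0657 and 0.0723) and each set of runs alone.

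**Figure D1:**
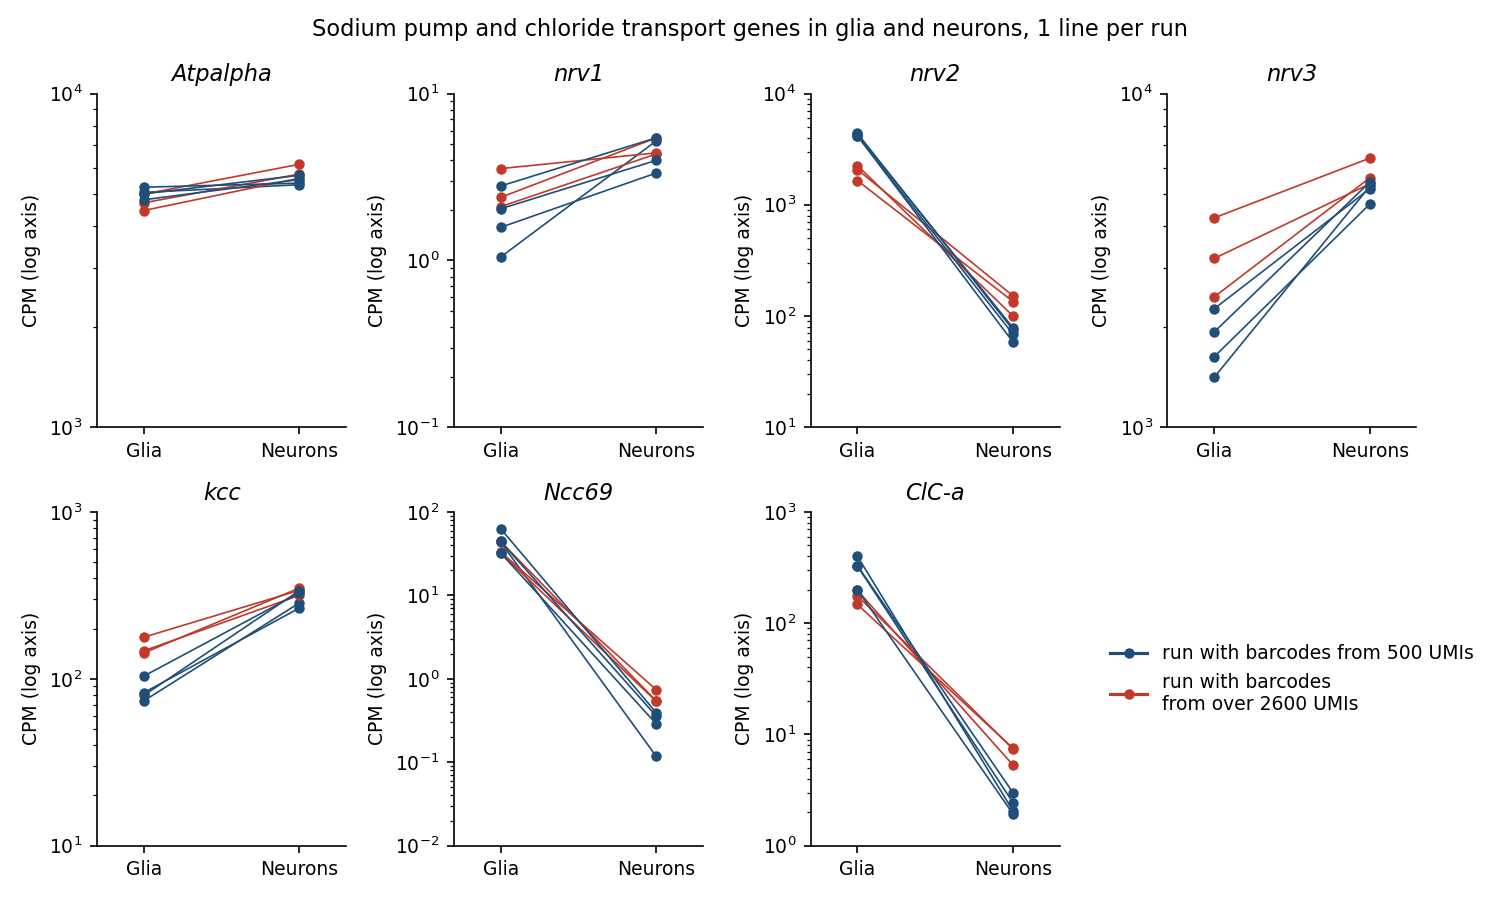
Level of each gene in glia and in neurons, in CPM on a log axis, with 1 line per run; red lines are the 3 runs whose barcodes start at 2658 UMIs or more and blue lines the 4 that start at 500. nrv2, Ncc69 and ClC-a fall from glia to neurons in every run, while nrv3, kcc and nrv1 rise. Atpalpha rises slightly on this scale (its direction turns with the scaling of the test). For nrv2, Ncc69 and ClC-a the red lines fall less steeply than the blue ones. For nrv3 and kcc the red lines rise less steeply on average.

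Taken as shares of all beta subunit UMIs, *nrv2* made up 56.6 ± 18.3% in glia and 1.71 ± 0.56% in neurons, where *nrv3* held 98.2 ± 0.56%. The difference of 54.9 ± 18.7 percentage points was positive in 7 of 7 runs (exact two-sided sign-flip permutation test, p = 0.0156, the smallest that 7 runs allow; adjusted over 3 ratios, 0.0156). It was 36.2 points in the runs with a high UMI minimum and 69.0 points in the others, sets too small to pass the threshold. There were 0.863 ± 0.110 *Atpalpha* UMIs for each beta subunit UMI in glia and 1.03 ± 0.09 in neurons, a log2 difference of −0.26 ± 0.17 (SD) with the same sign in 7 of 7 runs and the same p. This holds for the pooled glia and not for each glial type. The ratio was 0.345 ± 0.058 in PG, 0.977 ± 0.178 in EG and 0.991 ± 0.096 in the glia without a subtype. In ALG it was 1.48 ± 0.13, above neurons.

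The chloride importer *Ncc69* was a glial RNA of moderate level, at 43.7, 32.4, 44.3, 33.4, 44.6, 32.3 and 63.1 CPM in runs 1 to 7. In neurons it lay between 0.118 and 0.741 CPM. The difference of 7.08 ± 0.39 (adjusted p = 9.3e-07) was 6.28 ± 0.22 within the runs with a high UMI minimum and 7.94 ± 0.25 within the others. *ClC-a* stood at 326, 177, 198, 147, 200, 400 and 330 CPM in glia and between 1.93 and 7.52 CPM in neurons, a difference of 6.56 ± 0.58 (adjusted p = 1.24e-05). The 3 runs with a high UMI minimum had the lowest glial and the highest neuronal values of *ClC-a* and gave 5.05 ± 0.25, against 7.63 ± 0.18 in the others. Relative to the glial marker sum, *ClC-a* was at 3.82 ± 0.70% in glia and 2.15 ± 0.22% in neurons, and *Ncc69* at 0.666 ± 0.174% and 0.238 ± 0.093%.

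Cells with a *ClC-a* UMI made up 34.4 ± 9.4% of glia and 3.08 ± 2.16% of neurons. After thinning every cell to 500 UMIs, the shares were 11.3 ± 3.4% and 0.298 ± 0.151%. For *Ncc69* the shares were 9.77 ± 4.91% and 0.327 ± 0.201%, and 1.53 ± 0.20% and 0.0304 ± 0.0131% after thinning. The order of the classes was therefore the same at equal depth.

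*kcc*, the chloride exporter, lay between 266 and 350 CPM in neurons and between 73.8 and 178 CPM in glia. The ranges did not overlap, and the difference was −0.997 ± 0.112 (adjusted p = 4.88e-05), −0.76 ± 0.08 within the runs with a high UMI minimum and −1.26 ± 0.10 within the others. In glia *kcc* amounted to 6.15 ± 1.92% of the neuronal marker sum, more than the 2.87 ± 0.30% of neurons. The log2 ratio of *kcc* to *Ncc69* was 1.42 ± 0.69 in glia and 9.70 ± 0.77 in neurons. The difference of −8.28 ± 1.35 (SD) had the same sign in 7 of 7 runs (exact two-sided sign-flip permutation test, p = 0.0156, adjusted 0.0156).

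Among 30 other genes of sodium and chloride transport, listed with earlier results of these data known, 29 were in the files and 24 were tested. Of these, 11 were higher and 10 lower in glia, beside 36.6% higher and 38.3% lower among all genes tested. Their median was 0.10, against −0.06 for all genes tested. *NKCC* (CG31547 in the files), which like *Ncc69* encodes a cotransporter that takes up chloride, was higher by 6.37 ± 0.20 (128 ± 45 CPM in glia, 2.19 ± 0.73 CPM in neurons; adjusted p = 1.1e-07). *fray*, the kinase that activates such cotransporters, was higher by 1.99 ± 0.09 (78.9 ± 14.8 and 28.6 ± 5.1 CPM). *Wnk*, the other kinase of the same list, was lower, at −0.45 ± 0.08 (24.6 ± 5.2 and 48.8 ± 7.6 CPM). The inward rectifier potassium channels *Irk2* and *Irk3* were higher by 6.17 ± 0.67 and 5.56 ± 0.44 in the pooled glia. In PG they were at only 13.2 and 2.81 CPM on average, next to 12.3 and 1.36 CPM in neurons. The other glial types had 483 to 699 CPM of *Irk2* and 15.4 to 120 CPM of *Irk3*. Exchangers that spend the sodium gradient went the other way: *Nckx30C* and *Calx*, which export calcium, were at −2.12 ± 0.25 and −1.87 ± 0.25. *Ndae1*, a sodium-dependent anion exchanger, was at −1.86 ± 0.23 and *Nhe2*, a sodium-proton exchanger, at −1.80 ± 0.17. The chloride channel gene *Axs* was higher by 1.73 ± 0.16 and *CG33310*, of the list of other pump subunits, was at −1.47 ± 0.30. The members and these genes were measured in the same sums, and neuronal marker RNA within glia was present for all of them.

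Among glial types, PG, which form the outer layer of the blood-brain barrier, carried *nrv3* and little *nrv2*, whereas EG, ALG and the glia without a subtype carried *nrv2*. Each type was compared with the mean of the other 3 over 6303 genes, of which 54.5% were called for PG, 32.8% for ALG, 21.2% for EG and 23.5% for the glia without a subtype. *nrv1* did not pass the filter on low counts here. Of the 6 members tested, 6 were called in EG, 6 in ALG, 5 in PG and 4 in the glia without a subtype.

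In PG, *nrv3* stood at 7971, 6716, 6367, 6995, 6649, 6001 and 6768 CPM in runs 1 to 7, a difference of 2.90 ± 0.19 from the other glial types (adjusted p = 1.4e-14, edgeR). No other glial type reached more than 2941 CPM in any run. *nrv2* in PG lay between 31.6 and 138 CPM, a difference of −5.25 ± 0.27 (adjusted p = 2.6e-17), and made up 1.12 ± 0.72% of beta subunit UMIs. *nrv3* UMIs amounted to 409 ± 145% of the neuronal marker sum in PG. In EG, ALG and the glia without a subtype they amounted to 51.8 ± 7.7%, 53.0 ± 13.2% and 50.6 ± 8.9%, next to 48.9 ± 6.1% in neurons themselves. In those 3 types the ratio of *nrv3* to the neuronal markers was near that of neurons. *nrv3* was also highest there in runs 2, 3 and 4, where the neuronal marker sum was highest. The source of the *nrv3* seen in these 3 types was not tested.

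*nrv2* was highest in EG, at 5958, 3145, 3646, 3143, 6067, 5634 and 6558 CPM in runs 1 to 7 (2.26 ± 0.17, adjusted p = 3.1e-12). It followed at 4010 ± 1277 CPM in the glia without a subtype (1.71 ± 0.18) and at 2818 ± 888 CPM in ALG (1.28 ± 0.18), and this order held in 7 of 7 runs although the ranges overlapped. The share of *nrv2* among beta subunit UMIs was 79.0 ± 15.3% in EG, 74.9% in the glia without a subtype (range 44.0% to 93.5%) and 71.8 ± 18.7% in ALG. In EG it was lowest at 55.9% and highest at 93.5%, with all 3 runs of a high UMI minimum below the other 4.

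**Figure D2:**
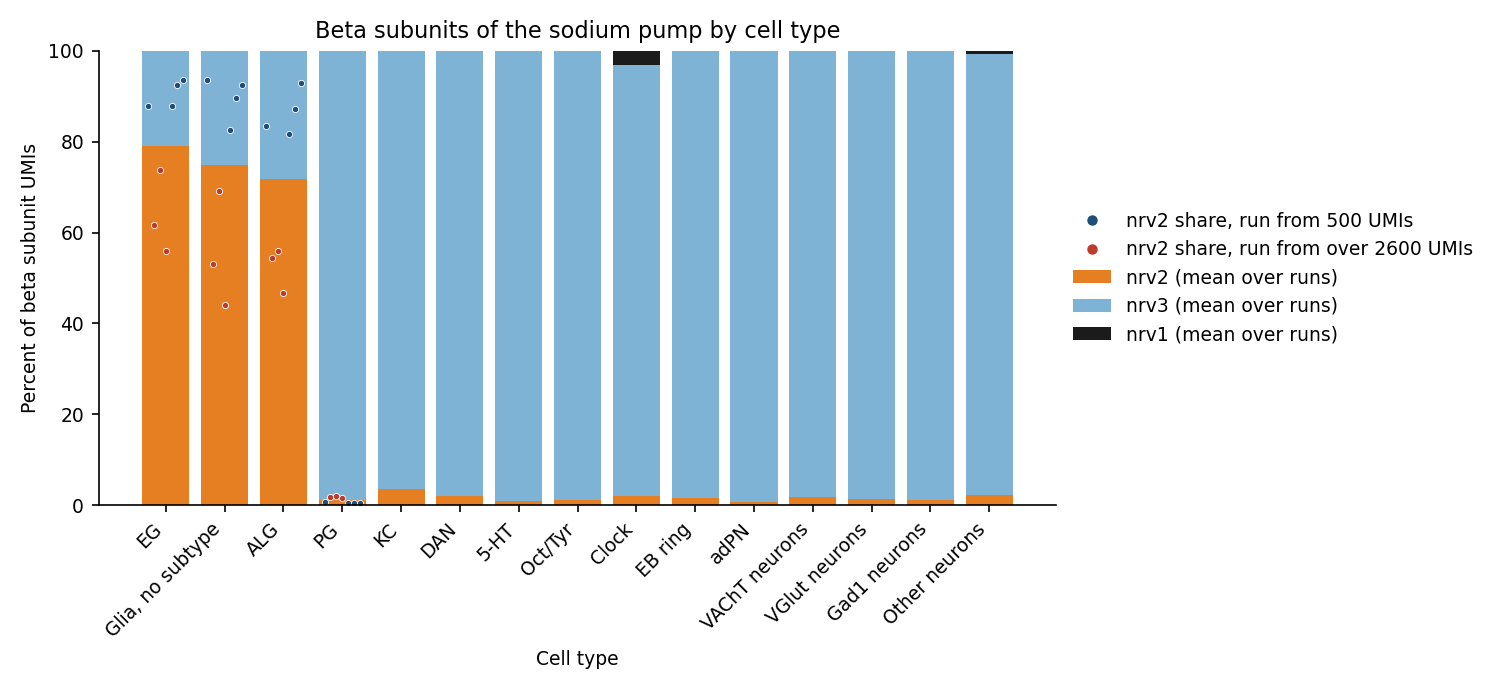
Share of each beta subunit gene in all beta subunit UMIs (percent), by cell type, as the mean over runs (bars) and as the nrv2 share of each run for the 4 glial types (points; red for the 3 runs whose barcodes start at 2658 UMIs or more). EG, ALG and the glia without a subtype are mostly nrv2, PG and all neuron types are nearly all nrv3, and nrv1 is visible only in clock neurons and in the neurons with no type name.

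The catalytic subunit did not follow the sum of the beta subunits. *Atpalpha* was at 5798 ± 331 CPM in EG (0.52 ± 0.08, adjusted p = 3.1e-06) and 5777 ± 739 CPM in ALG (0.59 ± 0.08, adjusted p = 3.2e-07). In PG it lay between 1638 and 2847 CPM (−1.27 ± 0.09, adjusted p = 5.4e-14), below every run of every other glial type. This left 0.345 ± 0.058 *Atpalpha* UMIs for each beta subunit UMI in PG, against 0.977 ± 0.178 in EG and 1.48 ± 0.13 in ALG. The 3 ranges were 0.271 to 0.416, 0.794 to 1.28 and 1.26 to 1.61, so that PG did not overlap with the others.

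The 3 chloride genes each had their own order. *ClC-a* was highest in EG on average, at 500, 364, 431, 420, 369, 639 and 528 CPM (2.92 ± 0.15, adjusted p = 3.4e-16). The glia without a subtype followed at 307 ± 207 CPM (1.60 ± 0.18, adjusted p = 1.32e-08), below EG in 6 of 7 runs and above it in run 1 (540 CPM). ALG had 49.9 ± 16.6 CPM (−1.07 ± 0.20) and PG 13.6 ± 4.5 CPM (−3.45 ± 0.24). *Ncc69* was highest in PG at 53.9, 57.4, 90.9, 51.5, 73.5, 56.0 and 105 CPM (1.71 ± 0.14, adjusted p = 1.3e-12). EG (43.3 ± 10.2 CPM, 0.81 ± 0.14) and the glia without a subtype (44.3 ± 19.1 CPM, 0.55 ± 0.17) held similar levels of it. ALG had only 7.65 ± 5.91 CPM of *Ncc69* (−3.07 ± 0.21, adjusted p = 1.7e-13), with no run above 19.9 CPM. *kcc* was highest in ALG, between 113 and 216 CPM (0.70 ± 0.13, adjusted p = 7.98e-05), where it reached 9.87 ± 4.81% of the neuronal marker sum. In EG it was at −0.41 ± 0.13 (94.8 ± 41.3 CPM) and in PG at 0.02 ± 0.14 (124 ± 38 CPM, adjusted p = 0.904). *NKCC* was at 553 CPM in PG on average and at most 2.58 CPM in the other 3 types.

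Without the run as a block, several of the smaller differences among glial types lost their call. These were *nrv3* in EG (adjusted p = 0.141), in ALG (0.0945) and in the glia without a subtype (0.177), *kcc* in EG (0.394) and *Ncc69* in the glia without a subtype (0.127). The call of *kcc* in EG was also lost without run 3 (−0.42, adjusted p = 0.0617), and that of *Ncc69* in the glia without a subtype without run 1, 4, 5 or 6 (0.40 to 0.52, adjusted p = 0.0654 to 0.104).

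**Figure D3:**
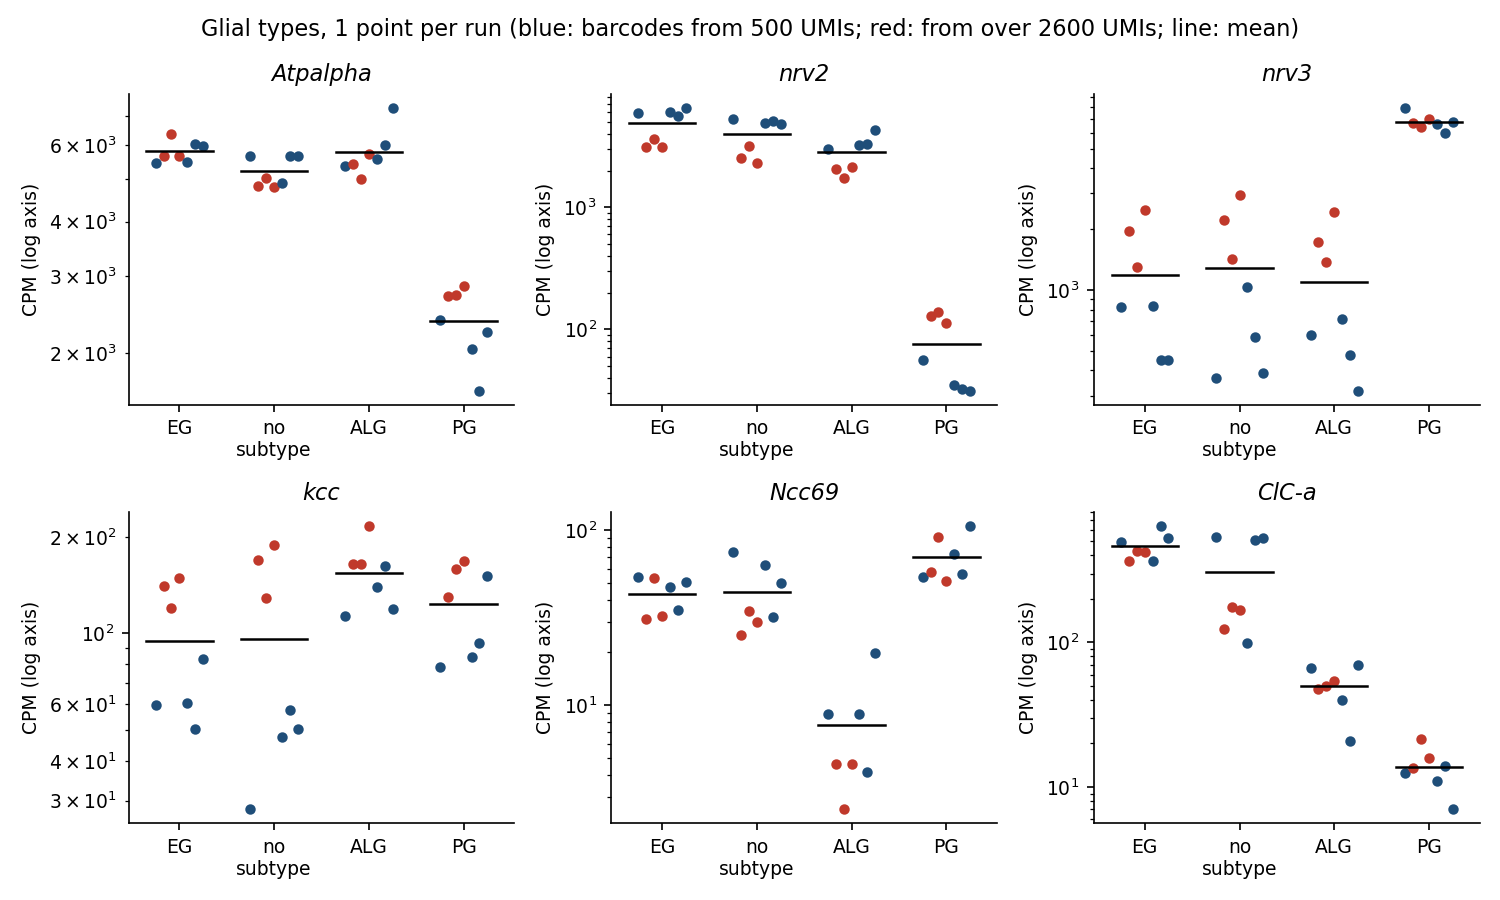
Level of 6 genes in the 4 glial types, in CPM on a log axis, with 1 point per run and the mean over runs as a line; red points are the 3 runs whose barcodes start at 2658 UMIs or more. PG has the highest nrv3 and Ncc69 and the lowest Atpalpha, nrv2 and ClC-a, EG has the highest nrv2 and ClC-a, and ALG the lowest Ncc69.

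The 3 EG clusters were not alike. In the cluster led by *Ork1* and *CR17025*, *ClC-a* reached 634 ± 219 CPM and *Ncc69* 68.3 ± 29.7 CPM over 7 runs. In the cluster led by *CR44107* and *DNaseII*, where 5 runs had enough cells, they were at 265 ± 101 and 15.3 ± 10.7 CPM. In the cluster led by *Ela* and *CG9657* they were at 307 ± 115 and 16.6 ± 9.5 CPM over 7 runs. These clusters were formed from other genes of the same cells, and differences between them are given without a test.

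All 11 neuron types were *nrv3* types, with mean shares of *nrv2* among beta subunit UMIs of at most 3.66%. Each type was compared with the mean of the other 10 over 7547 genes, with *Ncc69* left out by the filter on low counts. Of these genes, 78.1% were called in KCs, 66.9% in adPNs, 55.2% in *Gad1* neurons, 53.4% in *VAChT* neurons, 50.2% in the neurons with no type name, 42.6% in clock neurons and 38.7% in EB ring neurons. Described here are calls of *nrv1*, *nrv3* and *kcc* of at least 0.5 on the log2 scale. No difference of *Atpalpha* reached 0.5, and its value in adPNs, where it was highest, is given beside that of *nrv3*. *nrv2* and *ClC-a* stayed at or below 132 and 6.47 CPM in every neuron type on average, beside the ratio to glial marker RNA given above for all neurons, and are not described by type.

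*nrv3* and *Atpalpha* were highest in adPNs, the projection neurons that carry olfactory signals from the antennal lobe. There *nrv3* stood at 6971, 7562, 8392, 8890, 8478, 7986 and 8245 CPM in runs 1 to 7 (0.66 ± 0.03, adjusted p = 1.7e-30, edgeR). *Atpalpha* reached 7552 ± 459 CPM in the same cells (0.41 ± 0.03). For *nrv3*, PG at 6781 ± 614 CPM came next to adPNs among all glial and neuron types and were lower than them in 6 of 7 runs. *nrv3* was lowest in KCs, the intrinsic neurons of the mushroom body, at 3423 ± 529 CPM (−0.63 ± 0.03, adjusted p = 4.4e-27), next to clock neurons at 3690 ± 435 CPM (−0.56 ± 0.03). KCs and clock neurons did not differ beyond their spread, as KCs were lower in 4 of 7 runs. Over the 189 neuron clusters, *Atpalpha* and *nrv3* levels correlated with r = 0.92 (Spearman's rho 0.92), a description of clusters that share libraries, with r = 0.46 between *Atpalpha* and the median UMIs of a cluster. Their highest cluster was the same for both, a *VGlut* cluster of 435 cells led by *CR31781* and *CG3014*, with 9295 ± 583 CPM of *Atpalpha* and 9639 ± 654 CPM of *nrv3*.

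*kcc* was highest in EB ring neurons, inhibitory neurons of the central complex, at 395, 400, 452, 441, 353, 502 and 316 CPM in runs 1 to 7 (0.74 ± 0.06, adjusted p = 7.3e-16). It was lowest in KCs, at 160 ± 40 CPM (−0.74 ± 0.07, adjusted p = 1.6e-15), and in clock neurons, at 161 ± 45 CPM (−0.82 ± 0.08, adjusted p = 1.3e-13). No run of either type reached the lowest run of EB ring neurons. The level in ALG, 154 ± 35 CPM, was close to that in KCs, which were higher in 4 of 7 runs. Among single clusters the highest was a *VGlut* cluster of 127 cells led by *CG33777*, *CG15186* and the histamine receptor gene *ort*, at 862 ± 182 CPM over 5 runs.

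*nrv1*, the least abundant beta subunit, was at 0.258 to 6.70 CPM on average in 9 of the 11 neuron types. The exceptions were clock neurons and the neurons that received no type name. In clock neurons it stood at 178, 147, 214, 73.9, 194, 25.6 and 8.72 CPM in runs 1 to 7, from 145, 258, 384, 96, 100, 12 and 3 UMIs. The difference from the other neuron types was 5.49 ± 0.20 (adjusted p = 2.3e-35, edgeR). That error rests on the spread shared by all neuron types, while *nrv1* in clock neurons was at 120 ± 83 CPM (SD) over runs. In the neurons with no type name it lay between 17.8 and 38.2 CPM (3.22 ± 0.18, adjusted p = 5.05e-25). Of the 1356 *nrv1* UMIs of that type, 728 came from a cluster of 207 cells and 439 from a cluster of 176 cells, both described below. In EB ring neurons 3 UMIs were counted in all, in 1315 cells (−4.49 ± 0.98, a fitted value that depends on the prior count). It was also lower in *Gad1* neurons (−1.32 ± 0.45, adjusted p = 0.00954) and *VAChT* neurons (−1.10 ± 0.41, adjusted p = 0.0189). The former call was lost without run 5 (adjusted p = 0.0547) and the latter without run 2 or 5 (0.0607 and 0.0760). Even in clock neurons, where *nrv3* was at 3690 CPM, *nrv1* stayed a small part of the beta subunit UMIs.

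The *nrv1* of clock neurons came from few cells. Of 643 clock cells 113 held an *nrv1* UMI, and the 55 cells with at least 5 held 89.2% of the 998 UMIs. These 55 cells were spread unevenly, with 6, 17, 21, 7, 3, 1 and 0 of them in runs 1 to 7. The runs that held ZT20 flies (1, 2, 3 and 5) had the 4 highest *nrv1* levels and the runs without them the 3 lowest. Runs 6 and 7, with 1 and 0 such cells, were lowest, and were also the runs that held flies under gaboxadol. Whether time of day, condition or the number of these cells accounts for it was not tested.

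**Figure D4:**
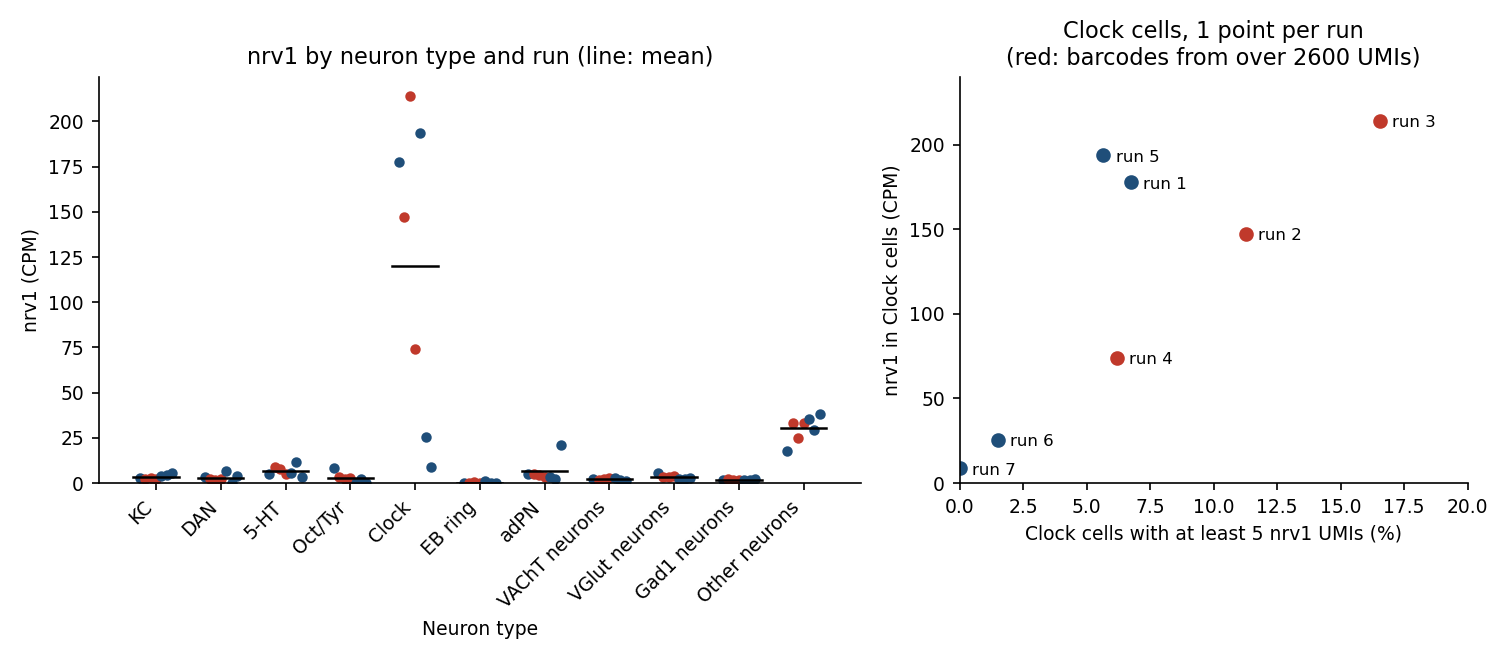
Left, nrv1 level in each neuron type in CPM, with 1 point per run and the mean as a line. Right, nrv1 level in the clock cells of each run against the percentage of its clock cells with at least 5 nrv1 UMIs; red points are the 3 runs whose barcodes start at 2658 UMIs or more, and runs 6 and 7 lie lowest on both axes.

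Outside the clock cluster, *nrv1* was also high in a few other neuron clusters, which were picked out after their values were seen. The *Crz* and insulin-like peptide clusters below belong to the neurons with no type name. They held most of that type's *nrv1* UMIs, so they are not a result separate from its level. A cluster of 207 cells led by *Crz* (corazonin), *CG32040* and others including *ITP* had 135 ± 36 CPM over 6 runs, with 105 of its cells holding an *nrv1* UMI. A cluster of 176 cells led by the insulin-like peptide genes *Ilp2*, *Ilp5* and *Ilp3* had 88.7 ± 23.4 CPM over 4 runs. Between these in level stood a *VAChT* cluster of 104 cells led by *CG8916*, *CG34377* and *Dll*, at 122 ± 85 CPM over 5 runs, from 25 UMIs and with a range of 16.5 to 254 CPM. *ITP* encodes the ion transport peptide, a hormone that promotes water and ion retention. Neurons were therefore also taken by *ITP*, at 20 or more UMIs, a limit chosen after the data were seen. Of the 161 such neurons, 70 lay in the *Crz* cluster, 10 in the insulin-like peptide cluster and 13 among the clock neurons, so that most came from clusters already chosen for their *nrv1*, and their levels are no separate evidence. These 161 neurons had 156 ± 52 CPM of *nrv1* over 6 runs, with a range of 92.1 to 220 CPM. The other 120006 neurons had 4.02 ± 0.72 CPM, at most 5.08 CPM in any run. The *ITP* cells were deeper, with a median of 19396 UMIs against 5946, and the part of depth was not tested. *nrv3* was at 3517 ± 555 CPM and *Atpalpha* at 3861 ± 563 CPM in the same cells, against 5422 ± 527 and 5633 ± 269 CPM in the other neurons. *nrv1* was also found in the 108 hemocytes, at 68.2 ± 19.9 CPM over the 4 runs with enough of them.

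Since cells were not joined to conditions, time of day was compared only between run 5, the single run of ZT20 alone, and runs 6 and 7, with the spread taken from runs of the same ZT times. Conditions differed as well: runs 6 and 7 held flies under gaboxadol, flies deprived of sleep from ZT12 to ZT8 and awake flies. Run 5 held sleeping flies and flies deprived of sleep from ZT12 to ZT20. ZT therefore cannot be told apart from condition here. Of 7843 genes 0.255% were called in glia and 0 of 10609 in neurons (edgeR; 434 at an unadjusted p under 0.05, and 25 called by DESeq2). In EG 0.212% of genes were called, in ALG 0.0920% and in PG 0. No member was called in glia or neurons as a whole, nor in EG, ALG or PG. *ClC-a* in glia was at −0.93 ± 0.24 (ZT20 minus ZT8, adjusted p = 0.285; 0.00424 without run 7 and 0.0153 without the filter on low counts), and *nrv3* in glia at 0.02 ± 0.28 (adjusted p = 0.996). For no member did this difference itself differ between glia and neurons at the threshold, with *ClC-a* at −0.52 ± 0.41 (adjusted p = 0.946; 0.159% of genes called).

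The single call among members was *ClC-a* in the glia without a subtype, at −2.42 ± 0.39 (adjusted p = 0.00165; 1.26% of 4350 genes called). The ZT20 side is 1 library, with 75 cells of this type against 47 and 34 in runs 6 and 7. ZT, condition and library therefore cannot be told apart, and the p-value takes the spread of that library from the other runs. There it stood at 540, 512 and 527 CPM in runs 1, 6 and 7, which held ZT8 flies, and at 123, 177, 169 and 98.8 CPM in runs 2, 3, 4 and 5, which did not. The 2 sets did not overlap. The sum of the EG markers in the same cells moved with it, at 8121, 8572 and 8968 CPM in runs 1, 6 and 7 and between 3300 and 5203 CPM in the others. So did the sums of 2 other glial lists, whereas the sums of the PG markers overlapped. The general glial markers were at 6591, 7125 and 6622 CPM against 3278 to 4796 CPM, and the ALG markers at 34030, 29972 and 51636 CPM against 15976 to 28585 CPM. Most of that ALG sum was *Obp44a*, at 26658 ± 11600 CPM over runs. The neuronal marker sum moved in the opposite direction, from 926, 1075 and 953 CPM to values between 2003 and 4434 CPM. Their part in the result was not tested. In EG the values of runs 1, 6 and 7 were also the 3 highest, at 500, 639 and 528 CPM against 364 to 431 CPM, with a difference of −0.73 ± 0.24 that was not called (adjusted p = 0.494).

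**Figure D5:**
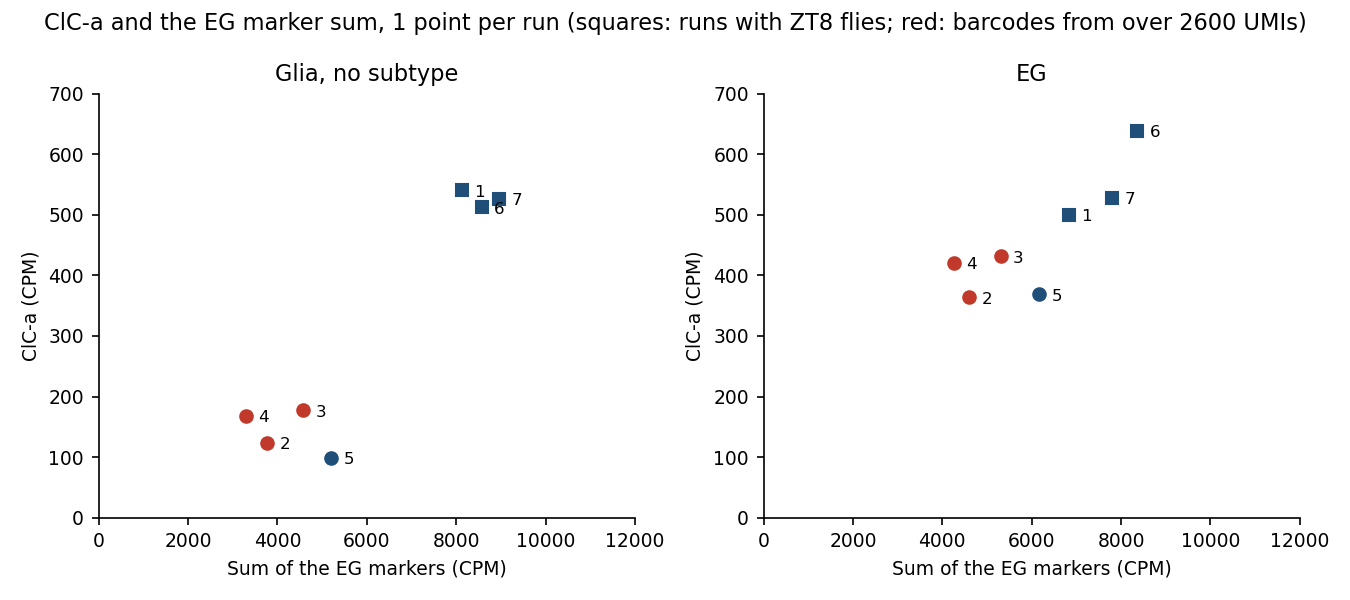
ClC-a level against the sum of the EG markers, both in CPM, in the glia without a subtype (left) and in EG (right), with 1 numbered point per run; squares are runs with ZT8 flies and red points the 3 runs whose barcodes start at 2658 UMIs or more. In the left panel the 3 squares lie at 512 to 540 CPM and the 4 circles at 98.8 to 177 CPM.

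Across 17 cell types, the genes whose mean levels correlated most with each member were named among 7471 genes, as a description. *nrv2* was closest to *Irk2* (Pearson's r = 0.996), *CG6723* and *CG8369*, and *ClC-a* to *Inx3*, a gap junction gene (r = 0.980), *CG16743* and *CG2254*. *Ncc69* was closest to *CG9238*, *Cct2* and *CG3097* (r of at least 0.990), all highest in PG. *nrv3* was closest to *Vha44*, a subunit of the vacuolar proton pump (r = 0.958), *CG3655* and *Tina-1*. The closest gene to *kcc* was *CG13760* (r = 0.935), to *Atpalpha* *fbl* (r = 0.912) and to *nrv1* *Pdi*, a protein disulfide isomerase gene highest in hemocytes (r = 0.867).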

How the data were processed

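The authors deposited raw UMI counts per gene and barcode for 7 runs, made with Cell Ranger 3.1.0 from 10x Genomics 3′ libraries and a BDGP6 annotation. The submitters' notes also name Scanpy 1.4.4. The rows of the 7 members were read by gene symbol. The genotype demultiplexing was not repeated, and no per-sample column was left unmatched.

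Barcodes with fewer than 200 genes or more than 30% mitochondrial UMIs were removed. Doublets were called with Scrublet in Scanpy 1.11.5; in runs 6 and 7, where the automatic threshold called 0 doublets, the threshold of run 1 was used. Cells were clustered at resolution 8 on 1149 variable genes, 58 principal components and 15 neighbours, without the 7 members, 4 of which were variable genes. Clusters were named from marker lists, with limits (at least 3 markers at 2-fold) that were tuned on the clusters themselves. The members and all lists were chosen with earlier results of these data known.

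UMIs were summed per run and type (at least 10 cells) and tested with edgeR 4.0.16 (R 4.3.3), trimmed-mean scaling, the run as a block and Benjamini–Hochberg adjustment over all genes, with a threshold of 0.05. Both sums of a run come from 1 library, so the pairing is given by the design. The deviations of glia and neurons of 1 run correlated between −0.14 and 0.54 over 1263 genes. Ratios used exact sign-flip tests. Alternatives were DESeq2 1.42.0, other filters, a resolution of 4, kept doublets, no block and each run left out. On simulated data, 100% of 2-fold changes were recovered between glia and neurons (8633 genes), and for ZT20 against ZT8 in glia 33% at 2-fold and 91% at 4-fold (7673 genes). Only genes with a mean of at least 10 CPM were changed, so levels like that of *nrv1* were not covered. Apart from these changes, the simulated sums differed between classes and runs only in depth.

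Named genes were the 7 members in every comparison, up to 10 listed pathway genes with the largest called difference and 1 direction in all runs, and the 3 genes of most like pattern for each member. *Wnk* was named in addition, beside *fray*. Genes with near-identical copies and overlapping genes were not resolved beyond the deposited counting.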

Additional observations from a re-analysis of the deposited data

Results flagged for a closer look

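Of 57 sets of 7 runs, 6 had 1 run that stood apart from the other 6, by a gap to the nearest run above Dixon's 95% critical value, where chance gives about 1 in 20. In run 7, whose ALG comprised 77 cells, ALG had 7308 CPM of *Atpalpha* (next highest 5985), 19.9 CPM of *Ncc69* (next 8.93) and 9.94 CPM of *nrv1* (next 3.94). The glia of run 7 as a whole had 63.1 CPM of *Ncc69* (next 44.6). Run 4 had 6.20 CPM of *nrv1* in EG (next 3.04). The *nrv1* level of 1.205 CPM in the EB ring neurons of run 5 (next 0.331) was 1 UMI.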

How the results depend on the processing

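*nrv2*, *nrv3*, *kcc*, *Ncc69* and *ClC-a* kept their direction and call between glia and neurons in 19 of 19 alternatives each, *Atpalpha* in 12 and *nrv1* in 11. Among glial types 288 of 306 values kept both, and among neuron types 129 of 132. The split by UMI minimum and the fit without the glia that have no subtype were chosen after seeing the data. *Atpalpha* reversed on plain CPM (−0.20), *kcc* in PG, not called, reversed at resolution 4 (−0.022), without the glia that have no subtype (−0.057) and without run 3 (−0.0055; up to 0.19 with another run left out), and *nrv3* in glia between ZT20 and ZT8, not called, reversed at a minimum of 3000 UMIs (−0.26) and without run 6 (−0.25), but not without run 7 (0.36). In the runs with a high UMI minimum and in the others, the 3 ratio tests could not reach the threshold: *nrv2* share 36.2 and 69.0, *kcc* to *Ncc69* −7.03 and −9.22, *Atpalpha* to beta subunits −0.14 and −0.34. Without the replicate block, 2354 genes were called in *Gad1* neurons (4166 with it), 2428 in neurons with no type name (3792) and 1924 in *VAChT* neurons (4033), and *nrv1* between glia and neurons missed the threshold (−0.45, adjusted p = 0.0605). At resolution 4, 3108 genes were called in ALG (2070).

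Counts of genes called between ZT20 and ZT8 were the least stable. Without the filter on low counts they were 179 in glia (main 20), 8 in neurons (0), 96 in EG (15), 25 in ALG (6) and 93 in PG (0). DESeq2 called 39 in glia, 25 in neurons, 26 in EG, 16 in PG and 34 in the glia without a subtype (55). At a minimum of 3000 UMIs they were 8 in glia, 6 in EG and 55 in ALG, and with single-ZT runs alone 49 in neurons, 121 in EG, 29 in ALG, 17 in PG and 121 in the glia without a subtype. Leaving out run 6 or 7 gave 153 to 223 in glia, 5 in neurons, 7 to 9 in EG, 9 to 17 in ALG, 15 to 26 in PG and 24 to 35 in the glia without a subtype. The cause was not tested.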
